A study of Mus musculus with 80 samples.

Results

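Brown adipose tissue (BAT) and skeletal muscle of WT mice were compared across all counted genes. The comparison uses the 5 libraries whose tissue label reads brown fat and the 5 labelled muscle, all of genotype WT, which makes 10 of the 80 libraries of the study. The remaining libraries come from the same 4 tissues (BAT, muscle, inguinal white adipose tissue or iWAT, and liver) and from the genotypes FGF21 KO, UCP1 KO and UCP1/FGF21 double KO (dKO), which the labels spell UCP1/FGF12. The donors were homozygous male WT animals on a C57BL/6J background. They were reared at 30 °C, moved to 23 °C and a high-fat diet when 10 to 12 weeks old, and killed 3 weeks later. No treatment differed between the groups, so tissue was the only factor, and all donors shared the diet and the step down in temperature. RNA was taken from whole tissue and selected for poly(A) tails. The labels do not say which muscle was sampled, and do not link a BAT and a muscle library to the same mouse. Nothing names a batch. Tissue therefore cannot be told apart from dissection or from any order of processing, and p-values measure the spread between these libraries, which may be technical in part.

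Brown adipocytes and skeletal muscle fibers both arise from the dermomyotome of the embryo, and brown precursors pass through a stage that expresses the myogenic factor Myf5. Both cell types oxidise fatty acids and glucose in mitochondria, and both make heat. Brown adipocytes do so through uncoupling protein 1 (UCP1), which lets protons return across the inner mitochondrial membrane without making ATP. Muscle makes heat as a by-product of ATP use by myosin and by the calcium pump of the sarcoplasmic reticulum. The question here is which oxidative genes the pair shares, and which thermogenic and contractile genes separate them.

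Depth was between 30298956 and 43593343 counts on genes per library. Values are given as CPM, read counts scaled to library size, after TMM scaling of the 10 libraries, and differences as log2 fold changes of BAT over muscle with their standard error (SE), from the quasi-likelihood test of edgeR with Benjamini-Hochberg adjustment. A gene was called at an adjusted p under 0.01. It was classed as more than 2-fold different where a test against a 2-fold change passed at the same threshold, and as within 2-fold where the 95% interval of its fold change lay inside 2-fold in either direction. The markers matched the tissue labels. The summed level of 10 muscle fiber markers was 79.98 to 186 CPM in WT BAT and 158310 to 204530 CPM in WT muscle, and that of 8 brown adipocyte markers was 5474 to 9335 CPM in WT BAT and 10.2 to 73.6 CPM in WT muscle. Of 5 satellite cell markers, 3 had no count in any WT BAT library. Some libraries had higher levels of the other tissue's markers than the rest. WT muscle replicate 4 had a mean log2 CPM of 2.06 over the brown adipocyte markers, while the other WT muscle libraries lay between -0.33 and 0.09. WT BAT replicates 3 and 4 had 3.62 and 3.67 over the muscle fiber markers, against 1.77 to 2.46 in the other WT BAT libraries. Of markers of other cells, all 7 endothelial genes were called higher in BAT, 5 of 6 fibroblast genes and 3 of 7 macrophage genes were called higher in muscle (of all genes, 39.1% were called higher in BAT and 38.2% in muscle), and all 4 tested lymphocyte genes were called higher in BAT at means under 1 CPM. Schwann cell genes were mixed (2 of 6 higher in BAT and 1 in muscle), 2 of 5 smooth muscle genes and all 3 erythroid genes found in the files were higher in BAT, and none of 6 hepatocyte genes was called. The part of these cells in the results below was not tested, and in whole tissue a smaller number of cells of a type cannot be told apart from less RNA per cell.

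Most genes differed. Of 15042 genes tested, 11626 were called (77.3%), 5884 higher in BAT (39.1%) and 5742 higher in muscle (38.2%). Their sizes were unequal: 2422 genes were more than 2-fold higher in BAT (16.1%), 2505 were more than 2-fold higher in muscle (16.7%), and 6735 (44.8%) were within 2-fold. In 11121 genes (73.9%) the 5 libraries of one tissue did not overlap those of the other. The median log2 fold change over all genes was 0.02. Scaling by library totals in place of TMM shifted it by 0.22 towards BAT. The order of the 2-fold counts depended on scaling, since there were 3014 genes past 2-fold in BAT and 2099 in muscle with library totals, and 2582 and 2392 with upper-quartile factors. Because most genes were called, the gene groups below are described by how many members passed 2-fold and by their median.

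Among genes with a mean of at least 20 CPM in the higher tissue, the 8 with the largest fold change towards BAT were Ucp1, Kng2, Cidea, Slc27a2, Cpn2, Aspg, Elovl3 and Otop1. Ucp1 itself led with a log2 fold change of 9.43 ± 0.84. WT muscle replicate 4 set much of the size of these folds: without it the log2 fold change was 11.86 for Ucp1, 9.99 for Cidea, 9.81 for Slc27a2, 9.55 for Otop1, 9.34 for Aspg, 9.25 for Kng2, 9.06 for Cpn2 and 8.67 for Elovl3, and Ucp1 still led these 8. Kng2 encodes kininogen, the precursor of bradykinin, and averaged 100.5 ± 24.9 CPM (SD, n = 5) in BAT against 0.223 ± 0.147 CPM in muscle. Otop1, a proton channel, averaged 229 ± 19.4 against 0.901 ± 1.35 CPM. Kng2, Slc27a2, Cpn2, Aspg and Elovl3 were also expressed in WT liver, at 374, 2291, 563, 283 and 602 CPM on average over its 5 libraries, scaled with the other tissues. Towards muscle the 8 leading genes were Mstn, Ano5, Trim55, Tmem233, Mettl21c, Ampd1, Hoxc10 and Trim54. Mstn, the secreted inhibitor of muscle growth, had at most 2 counts in any WT BAT library and 63.6, 61.5, 97.5, 93.05 and 123 CPM in WT muscle, at least 1056-fold higher when BAT is set at a floor of 3 counts. The bounds were at least 855-fold for Trim55, a titin-associated ligase, 946-fold for Tmem233, 1167-fold for Mettl21c and 888-fold for the homeobox gene Hoxc10. Hoxc10 was also expressed in WT iWAT, at 8.98 to 12.7 CPM over its 5 libraries, scaled with the other tissues. Ampd1, the AMP deaminase of muscle, averaged 1764 ± 187 CPM in muscle and 0.473 ± 0.249 CPM in BAT.

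**Figure D1:**
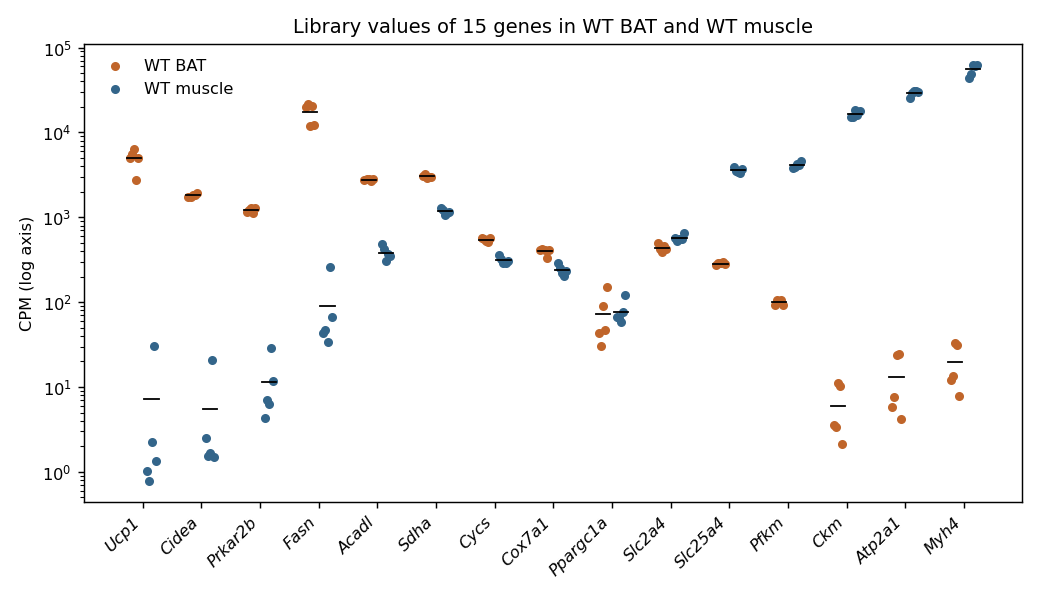
CPM on a log axis of 15 genes in the 5 WT BAT (orange) and 5 WT muscle libraries (blue), 1 point per library, with a bar at the mean of each group. Ucp1 to Fasn sit at the left with no overlap of the tissues, Cycs and Cox7a1 lie less than 2-fold apart, the Ppargc1a points overlap, and Ckm, Atp2a1 and Myh4 are separated by the widest gaps at the right.

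The thermogenic genes were in the main far higher in BAT. Of 50 listed genes 49 were tested; 39 were more than 2-fold higher in BAT (16.1% of all genes were), 2 more than 2-fold higher in muscle, and 5 within 2-fold. Their median log2 fold change was 3.61, or 3.50 with genes at the counting floor set at their bound, beside 0.02 over all genes. The libraries of the tissues did not overlap for 44 of the 49 (73.9% of all genes). Ucp1 (chr8:83290352-83298452 on GRCm38) measured 5044, 5549, 6459, 2761 and 4986 CPM in the 5 WT BAT libraries and 1.01, 0.775, 2.23, 30.5 and 1.33 CPM in the 5 WT muscle libraries. The lowest WT BAT library was thus far above the highest WT muscle library, and that muscle library was replicate 4, which also carried the most of the other brown markers. The adjusted p of Ucp1 was 8.41e-06 with edgeR. Cidea, which governs the size of lipid droplets and is a classical brown fat marker, measured 1725, 1748, 1830.1, 1815 and 1952 CPM in WT BAT against 2.47, 1.52, 1.66, 20.6 and 1.48 CPM in WT muscle. Again every BAT library exceeded every muscle library, and again muscle replicate 4 was the highest muscle library.

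The signalling chain that switches UCP1 on was a BAT group. All 6 adrenergic and cAMP genes were more than 2-fold higher in BAT. Adrb3, the beta-3 adrenergic receptor of adipocytes, differed by 5.78 ± 0.33 (log2, SE) and Adrb1, its beta-1 counterpart, by 7.19 ± 0.57. Prkar2b, the regulatory subunit of protein kinase A that prevails in fat, was at 1214 ± 68.1 CPM in BAT and 11.6 ± 9.91 CPM in muscle, a log2 fold change of 6.71, or 7.37 without muscle replicate 4. Dio2 makes active thyroid hormone inside the cell, and measured 23.3, 82.4, 177, 37.8 and 187 CPM in WT BAT against 2.87, 3.07, 2.203, 2.83 and 1.74 CPM in WT muscle. Its BAT libraries were widely spread, and the lowest still exceeded every muscle library. The thyroid hormone receptor genes differed less, with log2 fold changes of 0.46 ± 0.11 for Thra, within 2-fold, and 1.15 ± 0.22 for Thrb. All 8 genes of lipid droplets and lipolysis were more than 2-fold higher in BAT, from 1.48 ± 0.14 for Abhd5, the coactivator of adipose triglyceride lipase, to 8.35 ± 0.64 for Cidea; Pnpla2, the lipase itself, averaged 2251 ± 209 against 185 ± 17.8 CPM. Gk, glycerol kinase, differed by 6.18 ± 0.37. Kcnk3, a potassium channel, differed by 7.75 ± 0.41 (8.61 without muscle replicate 4), and Letmd1, a mitochondrial protein needed in brown fat, by 5.88 ± 0.11.

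A few thermogenic genes did not follow. Slc6a8, the creatine transporter, was higher in muscle (log2 fold change -2.69 ± 0.10), at 24.4 ± 3.42 CPM in BAT and 158 ± 15.2 CPM in muscle. Epdr1, a secreted protein linked to brown fat, was also a muscle gene in these libraries, at 2.41, 2.81, 2.84, 2.77 and 2.796 CPM in WT BAT against 145, 147, 137, 127 and 129 CPM in WT muscle. Alpl, tissue-nonspecific alkaline phosphatase, was within 2-fold and not called. Of the transcription genes, 8 of 12 were more than 2-fold higher in BAT, but Ppargc1a, the coactivator PGC-1alpha that drives mitochondrial biogenesis in both tissues, was not called (-0.11 ± 0.38, edgeR adjusted p = 0.803). Its libraries were at 42.9, 30.1, 90.3, 46.5 and 149 CPM in the 5 WT BAT libraries and 67.4, 64.3, 57.6, 76.9 and 121 CPM in the 5 WT muscle libraries, so the groups overlapped and the BAT libraries alone covered the whole muscle range. Esrrg, an estrogen-related receptor of oxidative tissues, was likewise within 2-fold and overlapping, at 20.1 to 26.4 CPM in BAT and 18.1 to 36.98 CPM in muscle. Zfp516, a zinc finger activator of Ucp1, was called higher in muscle, with a log2 fold change of -1.13 ± 0.12, and did not pass 2-fold. Fabp3, the fatty acid carrier of heart, muscle and brown fat, was not called. Fgf21 was below the low-count filter, with 7 to 10 counts in each WT BAT library and 0 to 3 in each WT muscle library.

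The general adipocyte genes and the lipid synthesis genes went the same way. Of 21 adipocyte genes, 16 were more than 2-fold higher in BAT (16.1% of all genes were) and none in muscle, with a median log2 fold change of 3.96. Low levels were counted in muscle as well. Adipoq, the hormone adiponectin, was at 579 to 768 CPM in BAT and 16.5 to 51.4 CPM in muscle, with muscle replicate 4 the highest. Fabp4, the adipocyte fatty acid carrier, was at 6263 ± 266 and 233 ± 89.9 CPM. Retn and Plin4 were called higher in BAT without passing 2-fold, and Klf15 was not called. Of 23 lipogenesis genes, 20 were more than 2-fold higher in BAT and none in muscle, and their median of 4.87 exceeded that of the thermogenic list. Fasn, fatty acid synthase, measured 19674, 21783, 12051, 20406 and 12253 CPM in the 5 WT BAT libraries and 43.8, 46.7, 34.05, 259 and 66.8 CPM in the 5 WT muscle libraries. The BAT values fell into a lower pair (replicates 3 and 5) and a higher trio, all far above muscle, where replicate 4 was highest. Without that library the log2 fold change of Fasn was 8.49 and that of Elovl6 8.46, against 7.58 and 7.36 with it. Scd1, the desaturase that makes oleate, measured 62242, 66328, 53139, 65733 and 55380 CPM in WT BAT against 596, 853, 529, 2279.7 and 1162 CPM in WT muscle. Elovl6, which lengthens palmitate, differed by 7.36 ± 0.50 and Acly, which makes cytosolic acetyl-CoA, by 6.40 ± 0.32. Of the 4 regulators, Srebf1 differed by 1.67 ± 0.10, Mlxipl, the carbohydrate response factor ChREBP, by 2.30 ± 0.11, and Thrsp, a nuclear protein of lipogenic tissues, by 5.97 ± 0.25. Gpam and Lpin1, which act early in triglyceride synthesis, were within 2-fold.

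The contractile genes formed the widest gap. Of 79 tested genes, 75 were more than 2-fold higher in muscle (16.7% of all genes were) and none in BAT. Their median log2 fold change was -9.59, or -9.40 with genes at the floor set at their bound. The libraries did not overlap for 75 of the 79 (73.9% of all genes). The list summed to 688 to 871 CPM in WT BAT and 278000 to 339300 CPM in WT muscle, where it took 23.7 to 27.1% of all counts. In WT liver it summed to 580.5 to 960.1 CPM and in WT iWAT to 622 to 11890 CPM, where 1 library stood far above the rest; both ranges overlap that of BAT.

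**Figure D2:**
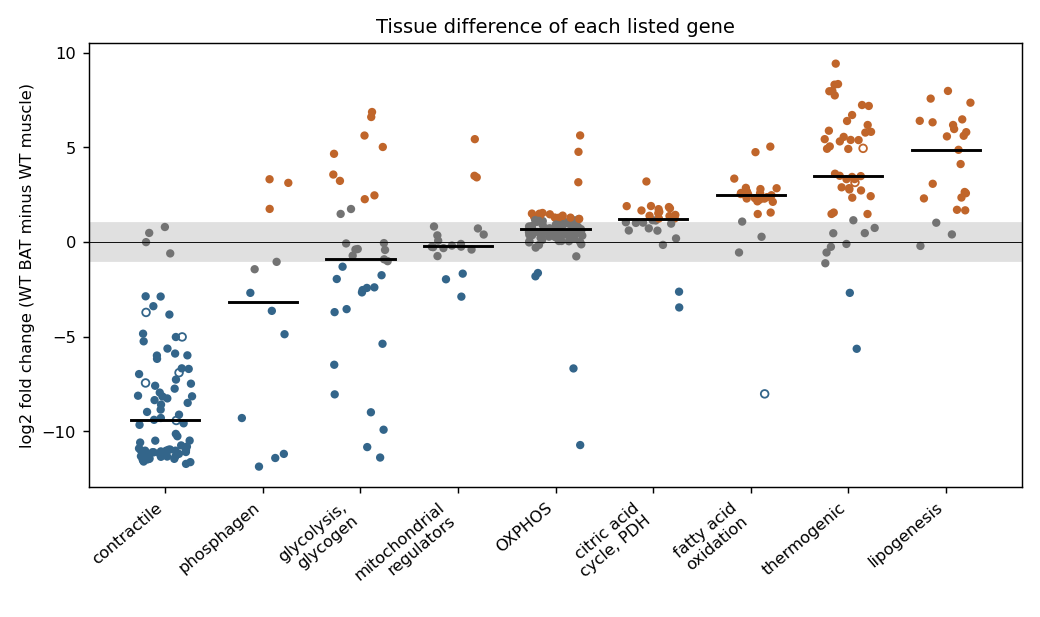
Log2 fold change (WT BAT minus WT muscle) of each tested gene in 9 gene groups, 1 point per gene, orange where more than 2-fold higher in BAT, blue where more than 2-fold higher in muscle and gray otherwise; open points are lower bounds for genes at the counting floor, the bar is the group median and the gray band spans 2-fold either way. Contractile genes lie at the bottom with a median of -9.40, oxidative phosphorylation (OXPHOS) genes cluster within the band with a median of 0.68, and lipogenesis genes are highest with a median of 4.87.

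Every class of contractile gene was represented, with 15 of 17 thin filament genes and 21 of 23 genes of excitation and calcium handling more than 2-fold higher in muscle. Myh4 (chr11:67238029-67260446), the myosin heavy chain of type 2B fast fibers, measured 12.1, 13.5, 33.1, 31.2 and 7.92 CPM in the 5 WT BAT libraries and 43355, 48563, 61923, 61431 and 62647 CPM in the 5 WT muscle libraries. BAT replicates 3 and 4 were the highest BAT libraries, as they were for other fiber genes, and still lay far under muscle. Among the listed fast and slow myosin heavy chains, Myh4 had a median share of 92.6% in WT muscle and the slow Myh7 0.0237%. These shares are of counts divided by exon length. Atp2a1 (chr7:126445858-126463108), the fast calcium pump SERCA1, measured 5.89, 7.62, 23.7, 24.2 and 4.21 CPM in WT BAT against 25445, 29480, 30417, 30538 and 29570 CPM in WT muscle, with the same pair of BAT libraries on top. All 13 thick filament genes and all 18 genes of the Z-disc and M-band were more than 2-fold higher in muscle, with medians of -10.99 and -9.87. Ttn, the giant spring titin, was at 16593 ± 1534 CPM in muscle and 5.52 ± 3.13 CPM in BAT; Ryr1, the calcium release channel, was at 3941 ± 123 and 1.78 ± 1.23 CPM. All 8 genes of the neuromuscular junction were higher in muscle, with a median of -7.93, or -6.81 with the 3 genes at the floor set at their bound; Chrnd, the delta subunit of the acetylcholine receptor, had no count in any BAT library. Des, the intermediate filament desmin, differed by -5.26 ± 0.09 and was at 53.2 ± 6.27 CPM in BAT. Myl1, an essential myosin light chain, was at 62.5, 58.9, 63.4, 66.8 and 54.2 CPM in BAT, with replicates 3 and 4 again highest.

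The 4 contractile genes that did not pass were Tpm3, Nebl, Atp2a2 and Pln. Atp2a2 encodes SERCA2, the calcium pump of slow fibers, heart and non-muscle cells, and measured 228, 239.6, 255, 221 and 256 CPM in WT BAT against 290.4, 93.3, 93.2, 86.8 and 131 CPM in WT muscle. Tpm3, a tropomyosin of slow fibers and of the cytoskeleton, measured 53.9, 53.5, 52.96, 53.99 and 50.2 CPM in WT BAT against 108, 39.8, 34.3, 33.6 and 50.4 CPM in WT muscle. In both, muscle replicate 1 was above every BAT library and the other muscle libraries were mostly below. The same library was the highest for the slow fiber genes. Myh7, the slow myosin heavy chain, measured 233, 9.14, 16.6, 10.96 and 60.8 CPM in WT muscle and 0.0778, 0.179, 1.29, 1.597 and 0.148 CPM in WT BAT. Tnni1, Tnnt1, Tnnc1, Myl2 and Myl3, the slow troponins and light chains, were also highest in muscle replicate 1, at 30.6, 51.7, 39.7, 97.5 and 107 CPM, and were more than 2-fold higher in muscle than in BAT. Without that library the log2 fold change of Myh7 was -5.25, against -6.68 with it, and those of Tnni1, Tnnt1, Tnnc1, Myl2 and Myl3 were -4.93, -4.58, -3.68, -6.76 and -3.74, against -6.01, -5.64, -4.85, -7.60 and -5.03. Without BAT replicate 4 they were -7.35 for Myh7, -8.36 for Myl2 and -7.23 for Tnni1. Without muscle replicate 1 the log2 fold change of Tpm3 was 0.42, against -0.01 with it, and that of Atp2a2 was 1.24 and called higher in BAT, against 0.79 and not called with it. Sln, sarcolipin, an inhibitor of the calcium pump that is tied to muscle heat production, was low in muscle (2.42, 0.799, 0.486, 0.416 and 1.38 CPM) and at 0 to 1 counts in BAT, at least 13.2-fold higher in muscle.

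The upstream sequence of some of these genes is shown because the myogenic factors bind a known motif, the E-box CAGCTG, and the contractile genes differ as a group. RefSeq entries on GRCm38.p6 gave the 250 bases before the annotated start for 54 of the 79 contractile genes and for 27025 genes in all. The 6-base motif, which reads the same on both strands, was present in 22 of the 54 (40.7%) and in 3979 of the 27025 (14.7%). It was present in 4 of 34 thermogenic genes (11.8%), in 7 of 68 OXPHOS genes (10.3%) and in 9 of 32 genes of glycolysis and glycogen (28.1%). The counts were 4 of 23 for fatty acid oxidation (17.4%), 2 of 24 for the citric acid cycle and pyruvate dehydrogenase (8.33%) and 2 of 16 for lipogenesis (12.5%). A MEF2 motif, searched on both strands, was present in 4 of the 54 contractile genes (7.41%) and in 0.592% of all genes. It was also in 1 of 34 thermogenic genes (2.94%) and 1 of 32 genes of glycolysis and glycogen (3.12%), and in no gene of the other lists. The cAMP response element TGACGTCA was present in 1 of 34 thermogenic, 5 of 68 OXPHOS and 3 of 24 citric acid cycle and pyruvate dehydrogenase genes (2.94%, 7.35% and 12.5%), against 1.77% of all genes. It was in 1 of 32 genes of glycolysis and glycogen (3.12%) and in no contractile, fatty acid oxidation or lipogenesis gene. TCAAGGTCA, the motif of estrogen-related receptors, and a pair of AGGTCA sites spaced by 1 base, that of PPAR dimers, were in 0.422% and 0.0407% of all genes, and in at most 1 gene of each of these lists. No site of PPAR dimers was in any gene of these lists. The TGACGTCA and AGGTCA motifs share the letters GTCA and can overlap. A match is a string in this window and not a bound site. Genes of the contractile list and the oxidase subunit gene Cox8b were picked as examples after the search, and Ucp1 is set beside them; capitals mark the E-box, and in Myoz2 also the MEF2 motif before it.
Myh4 (chr11:67237562-67237811, + strand): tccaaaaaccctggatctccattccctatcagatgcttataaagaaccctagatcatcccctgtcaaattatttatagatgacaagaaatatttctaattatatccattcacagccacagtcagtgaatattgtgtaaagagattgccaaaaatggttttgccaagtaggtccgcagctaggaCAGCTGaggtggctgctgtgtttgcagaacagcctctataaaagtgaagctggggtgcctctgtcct
Atp2a1 (chr7:126463074-126463323, - strand): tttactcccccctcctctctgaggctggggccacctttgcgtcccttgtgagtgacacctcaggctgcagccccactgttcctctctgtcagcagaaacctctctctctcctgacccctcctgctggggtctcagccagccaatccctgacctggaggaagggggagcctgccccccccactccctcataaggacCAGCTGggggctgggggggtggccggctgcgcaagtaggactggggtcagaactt
Myoz2 (chr3:123034988-123035237, - strand): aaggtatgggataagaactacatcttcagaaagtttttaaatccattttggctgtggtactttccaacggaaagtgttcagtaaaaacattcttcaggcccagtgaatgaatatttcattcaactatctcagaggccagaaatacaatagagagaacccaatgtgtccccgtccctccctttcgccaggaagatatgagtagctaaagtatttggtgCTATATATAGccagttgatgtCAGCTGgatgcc
Cox8b (chr7:140900447-140900696, - strand): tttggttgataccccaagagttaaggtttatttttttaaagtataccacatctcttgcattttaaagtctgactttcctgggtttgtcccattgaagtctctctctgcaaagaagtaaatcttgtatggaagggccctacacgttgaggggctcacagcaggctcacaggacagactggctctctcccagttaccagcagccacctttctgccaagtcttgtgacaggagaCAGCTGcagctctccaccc
Ucp1 (chr8:83290098-83290347, + strand): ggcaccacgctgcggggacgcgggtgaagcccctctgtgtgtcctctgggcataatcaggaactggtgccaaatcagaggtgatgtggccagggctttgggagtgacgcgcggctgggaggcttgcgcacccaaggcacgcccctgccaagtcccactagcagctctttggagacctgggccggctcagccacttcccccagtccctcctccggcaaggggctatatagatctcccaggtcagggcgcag
The E-box starts 67 bases before the annotated start in Myh4, 55 in Atp2a1, 12 in Myoz2 and 19 in Cox8b, and the MEF2 motif 33 bases before it in Myoz2. None of the 5 motifs was found in the Ucp1 window.

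Most transcription factors of the lineages were higher in their own tissue. Of 9 tested muscle factors, 8 were more than 2-fold higher in muscle (16.7% of all genes were) and the remaining factor, Mef2d, was called higher in muscle within 2-fold. Myod1, the master myogenic factor, had no count in any WT BAT library and 11.3, 10.4, 13.6, 16.4 and 17.9 CPM in WT muscle, at least 168-fold. Myog, Myf5 and Pax7 also had no count in WT BAT, with bounds of at least 45.97, 16.4 and 21.8-fold; Myf6, the factor of mature fibers, had a bound of 991-fold. Mef2c, a partner of the myogenic factors, was at 775 to 815 CPM in muscle and 12.2 to 14.5 CPM in BAT. Of 10 brown fat factors, 8 were more than 2-fold higher in BAT (16.1% of all genes). Prdm16, the coregulator that steers precursors from muscle to brown fat, measured 19.1, 20.5, 32.7, 25.97 and 30.3 CPM in WT BAT against 4.92, 6.67, 4.89, 5.43 and 3.41 CPM in WT muscle. Ebf2, a factor that marks brown precursors, differed by 2.72 ± 0.14 and Pparg, the master adipogenic receptor, by 5.43 ± 0.17. Lhx8, a homeobox gene of brown fat, had at most 2 counts in any muscle library, at least 30.9-fold higher in BAT. Ehmt1, a histone methyltransferase that partners Prdm16, was within 2-fold, and Zfp516 was called higher in muscle, as given above.

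Most of the listed factors of the dermomyotome and of body position were higher in muscle in these adult tissues. Of the 11, 8 were more than 2-fold higher in muscle, 3 were within 2-fold (16.7% and 44.8% of all genes were) and none was more than 2-fold higher in BAT. Tbx15, a T-box factor reported in brown fat and in fast muscle, measured 2.26, 1.85, 2.57, 3.698 and 3.39 CPM in WT BAT against 310.1, 304, 383, 343 and 402 CPM in WT muscle. No library overlapped, and muscle was the higher tissue (log2 fold change -6.98 ± 0.16). Eya1, a transcriptional coactivator of muscle precursors, was at 0.616 to 0.837 CPM in BAT and 45.3 to 53.6 CPM in muscle. Meox1, Meox2 and Zfp423 were within 2-fold and not called. Zic1, a zinc finger gene of the dorsal embryo that was listed with the brown fat factors, was higher in BAT, at 5.68, 3.56, 4.12, 2.83 and 4.03 CPM in WT BAT against 0.731, 0.5, 0.801, 0.675 and 0.26 CPM in WT muscle. Although it was lower in muscle, every one of the 10 libraries was above every WT iWAT and liver library, whose highest values were 0.0331 and 0.0368 CPM.

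The genes of oxidative phosphorylation (OXPHOS) were mostly higher in BAT and muscle than in WT iWAT and liver. Of 84 nuclear-encoded genes tested, 47 were within 2-fold (44.8% of all genes were), 16 more than 2-fold higher in BAT and 4 more than 2-fold higher in muscle (16.1% and 16.7%). With library totals 34 were within 2-fold, as were 6517 of all genes. In all 68 were called higher in BAT and 6 higher in muscle (39.1% and 38.2% of all genes were), and the median log2 fold change was 0.68. To ask whether the level was shared relative to other organs, the mean of BAT and muscle was set against that of WT iWAT and liver, 20 libraries in all. In that fit 78 of the 84 genes were higher in BAT and muscle (34.7% of 17232 tested genes were), and for 71 all 10 BAT and muscle libraries lay above all 10 others (6.24% of tested genes). Summed over the list, the 20 libraries held 49840 ± 1221 CPM in BAT (SD, n = 5), 29300 ± 2238 in muscle, 14810 ± 1317 in liver and 7472 ± 656 in iWAT, and no tissue's libraries overlapped those of the next in that order.

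**Figure D3:**
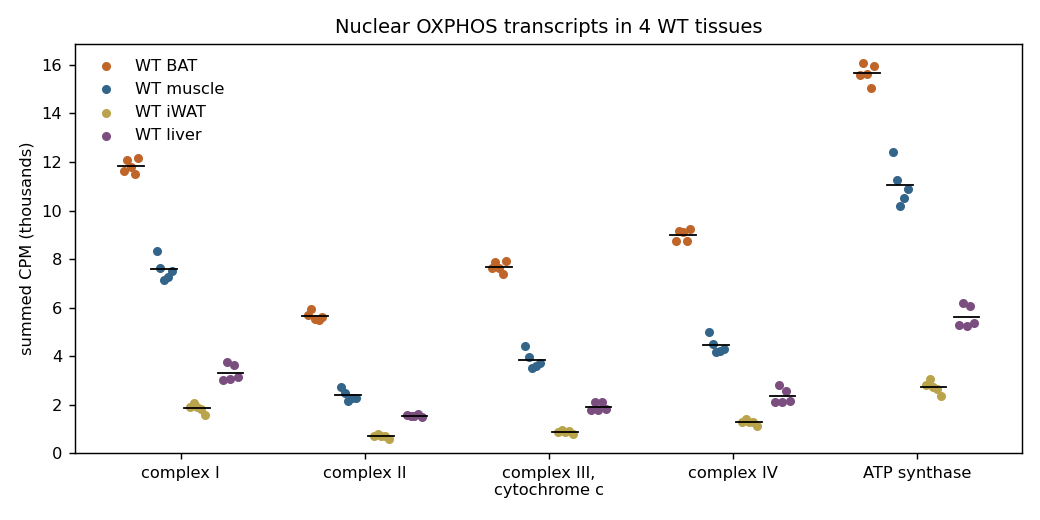
Summed CPM (axis in kilo-CPM, scaled over the 20 WT libraries) of the nuclear genes of each respiratory complex in WT BAT, muscle, iWAT and liver, 1 point per library with a bar at the mean. BAT is highest and iWAT lowest for every complex, and muscle stands between BAT and liver, with the highest ratio of its mean to that of BAT for complex I and ATP synthase.

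The complexes were not equal. For complex I, which takes electrons from NADH, 26 of 36 genes were within 2-fold (44.8% of all genes were) and the median was 0.49. In 35 of the 36, all 10 libraries lay above iWAT and liver (6.24% of tested genes). Ndufa5, a small accessory subunit, was at 139, 137, 138, 135 and 149 CPM in BAT and 146, 137, 126, 129 and 134 CPM in muscle, with the tissues overlapping. Ndufv1, the flavoprotein subunit that oxidises NADH, had the largest fold change of the complex, at 971 ± 31.7 CPM in BAT and 343 ± 40.7 CPM in muscle. The median was 1.17 for complex II, 1.00 for complex III with cytochrome c, and 0.92 for complex IV. Sdha, the flavoprotein of complex II that also serves the citric acid cycle, measured 3067, 3280.1, 2938, 3017 and 2960.4 CPM in WT BAT against 1282, 1208, 1070.5, 1135 and 1158 CPM in WT muscle. Its BAT libraries were all higher than its muscle libraries. Cycs, cytochrome c, was within 2-fold at 545 ± 25.9 and 312 ± 28.5 CPM.

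ATP synthase, the enzyme that UCP1 bypasses, had the lowest median, 0.20. Of its 17 genes, 12 were within 2-fold, 3 more than 2-fold higher in muscle and none in BAT (44.8%, 16.7% and 16.1% of all genes were). Atp5b, the catalytic beta subunit, was called higher in BAT, by 1.15 ± 0.09, while Atp5f1, the peripheral stalk subunit b, stood level at 560.1 ± 17.5 and 560.0 ± 47.05 CPM. The genes more than 2-fold higher in muscle were Atp5g1, Atp5g3 and Atp5j, and a further 2 were called higher in muscle below that size. Atp5g1, Atp5g2 and Atp5g3 encode different precursors of the same mature protein, subunit c of the proton-driven ring, and mouse brown fat is known for a low content of ATP synthase. Atp5g1 (chr11:96068852-96075670) measured 3.94, 3.53, 4.69, 5.01 and 3.19 CPM in the 5 WT BAT libraries and 466, 418, 393, 392 and 428 CPM in the 5 WT muscle libraries. The BAT libraries were the lowest of the 4 tissues, since iWAT held 20.8 to 39.2 CPM and liver 139 to 186 CPM in the fit over all 4. Atp5g3 was at 136 to 153 CPM in BAT and 409.6 to 554 CPM in muscle, and Atp5g2 did not differ by test (-0.03 ± 0.05). Many genes of these families have near-identical processed copies in the genome, and how the counting divided reads between a gene and its copies was not tested.

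Where both tissues used an enzyme, they often used different paralogs. In 24 paralog families, each member's share of the family's counts, divided by exon length, was taken within each library, which does not depend on scaling between tissues. The leading paralog differed between BAT and muscle in 11 families. The length used mattered for Atp5g1, which has an exon length of 4.91 kb. Its median share in muscle was 10.3% with this scaling and 43.8% of raw counts, where Atp5g3 held 46.6%. Of the uncoupling proteins, Ucp1 had a median share of 97.9% in BAT (96.2 to 98.2%) and 0.97% in muscle (0.465 to 10.4%), where Ucp3, the uncoupling protein homolog of muscle, had 94.96%. Ucp3 itself was not called between the tissues, at 141, 135, 159, 142 and 209 CPM in WT BAT against 147, 172, 219, 385 and 418 CPM in WT muscle. The muscle libraries spread more widely than the BAT libraries, and their ranges overlapped. The log2 fold change of Ucp3 was -0.77 ± 0.27, and it was called higher in muscle when muscle replicate 1 or 2 was left out (-0.93 and -0.90). Ucp2, the homolog of immune and other cells, was more than 2-fold higher in BAT, at 36.5 against 13.04 CPM on average.

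Cytochrome c oxidase showed both patterns at once. Subunit 6A is made by Cox6a1, the form of most tissues, or by Cox6a2, the form of striated muscle. Cox6a1 measured 655, 724, 710.3, 767 and 727 CPM in WT BAT against 13.8, 12.9, 11.6, 21.2 and 12.7 CPM in WT muscle. Cox6a2 measured 0.156, 0.179, 0.389, 0.364 and 0.0247 CPM in WT BAT against 476, 399, 389.8, 312 and 293 CPM in WT muscle. There was no overlap for either gene, and Cox6a1 thus took 99.98% of the pair in BAT and 3.71% in muscle. Subunits 7A and 8, by contrast, also have forms named for heart and muscle, Cox7a1 and Cox8b, and both tissues used these. Cox7a1 measured 407, 419, 406, 333 and 412 CPM in WT BAT against 291, 252, 218, 205 and 233 CPM in WT muscle, within 2-fold, and 2.81 to 15.1 CPM in iWAT and 1.18 to 1.56 CPM in liver on the scale of the 4 tissues. Its share of the 7A pair was 58.2% in BAT and 66.5% in muscle. Cox8b measured 623, 686, 748, 669 and 728 CPM in WT BAT against 281, 245, 252, 234 and 243 CPM in WT muscle, with 20.1 to 42.8 CPM in iWAT and 0.405 to 0.753 CPM in liver. Its partner Cox8a kept a share of 34.5% in BAT but 4.71% in muscle.

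**Figure D4:**
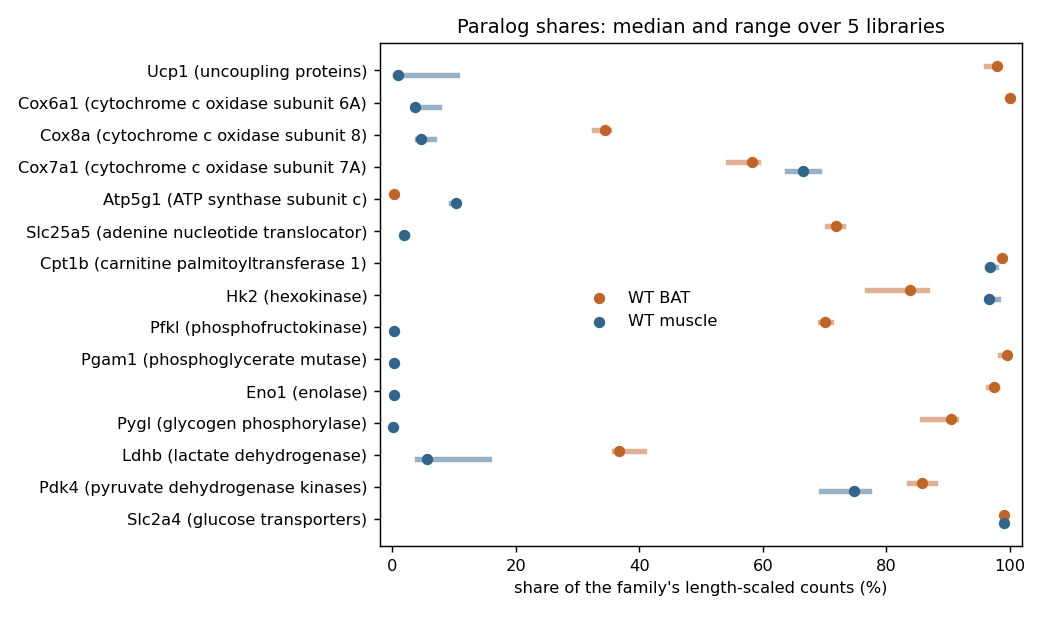
Share of 1 named paralog in the length-scaled counts of its family (%, horizontal axis) for 15 families, with a point at the median and a bar over the range of the 5 libraries of WT BAT (orange) and WT muscle (blue). Cox6a1, Pfkl, Pgam1, Eno1 and Pygl lead in BAT and are near 0 in muscle, whereas Cpt1b, Pdk4 and Slc2a4 lead in both tissues. The median Atp5g1 share in muscle is 10.3% on this scale and 43.8% of raw counts.

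The adenine nucleotide translocator, which trades ADP for ATP across the inner membrane, switched as well. Slc25a4 measured 272, 290.4, 287, 295 and 280.1 CPM in WT BAT against 3874, 3515, 3440.3, 3301 and 3675 CPM in WT muscle. Slc25a5 measured 472, 458, 470.4, 453 and 470.5 CPM in WT BAT against 45.5, 49.2, 38.7, 52.2 and 47.8 CPM in WT muscle. The order of the tissues was opposite for this pair and no library overlapped; Slc25a5 took 71.8% of the pair in BAT and 1.98% in muscle. In glycolysis the liver-type phosphofructokinase Pfkl took 70.1% of its family in BAT, and the muscle-type Pfkm took 99.6% in muscle. Pgam1, Eno1 and Pygl, the forms of phosphoglycerate mutase, enolase and glycogen phosphorylase that are typical of liver and other non-muscle tissues, held 99.5%, 97.5% and 90.4% in BAT and 0.219%, 0.263% and 0.0561% in muscle. Of the calcium pumps, Atp2a2 held 95.4% in BAT and 0.208% in muscle. The muscle-type carnitine palmitoyltransferase Cpt1b, in contrast, led in both tissues with 98.7% and 96.7%, as did Hk2, the insulin-responsive hexokinase, with 83.8% and 96.5%.

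The citric acid cycle was a BAT-leaning group. Of 27 genes of the citric acid cycle and of pyruvate dehydrogenase, 14 were more than 2-fold higher in BAT, 2 more than 2-fold higher in muscle and 5 within 2-fold (16.1%, 16.7% and 44.8% of all genes were), with a median of 1.24. With library totals 18 were more than 2-fold higher in BAT and 3 within 2-fold, as were 3014 and 6517 of all genes. All 14 genes of the cycle itself were called higher in BAT (39.1% of all genes were). Cs, citrate synthase, measured 2890.4, 2814, 2674, 2668 and 2668 CPM in WT BAT against 1102, 1041, 929, 1016 and 1003 CPM in WT muscle, a log2 fold change of 1.43 ± 0.08. The groups were well apart, and muscle was in turn above liver and iWAT, where Cs averaged 211 and 451 CPM on the 4-tissue scale. Of the regulators of pyruvate entry, Pdk4, the kinase that shuts pyruvate dehydrogenase when fat is burned, was high in both tissues. It measured 3566, 4491, 3758, 3730 and 2979 CPM in WT BAT against 1412, 1866, 1546, 2162 and 2019 CPM in WT muscle, against 104 to 195 CPM in iWAT and 3.77 to 13.2 CPM in liver. The opposing phosphatases divided, with Pdp1 higher in muscle (-3.46 ± 0.09) and Pdp2 higher in BAT (3.20 ± 0.17).

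Fatty acid oxidation leaned to BAT. Of 27 genes, 23 were more than 2-fold higher in BAT (16.1% of all genes were) and the median was 2.47. Scaled with iWAT and liver, the list summed to 39750 to 42430 CPM in WT BAT and 6053 to 8975 CPM in WT muscle. Muscle lay below WT liver (9190 to 9826 CPM) and overlapped WT iWAT (7820 to 15190 CPM). Against iWAT and liver, the mean of BAT and muscle was higher for 22 genes and lower for 2 (34.7% and 34.9% of tested genes). For 5 genes all 10 BAT and muscle libraries lay above those of iWAT and liver (6.24% of tested genes). Of the 12 beta-oxidation genes 11 passed 2-fold, and the log2 fold changes of all 12 ran from 1.08 (Eci2, which did not pass) to 3.35. Acadl, long-chain acyl-CoA dehydrogenase, measured 2774, 2839.9, 2841, 2672 and 2797 CPM in WT BAT against 479, 417, 307, 367 and 348 CPM in WT muscle. Muscle replicate 1, the library with the most slow fiber transcripts, was the highest muscle library. Hadha and Hadhb, the subunits of the trifunctional enzyme, differed by 2.15 ± 0.11 and 2.67 ± 0.12, and Etfdh, which passes electrons to ubiquinone, by 2.24 ± 0.11. Cpt1b, the gate for fatty acid entry, measured 1012, 1188, 1299, 1082 and 1292 CPM in WT BAT against 462, 428, 359.9, 369 and 380.1 CPM in WT muscle, and its iWAT and liver levels were 6.16 to 30.8 and 5.55 to 7.77 CPM. The exceptions were Acsl6, an acyl-CoA synthetase that was at 0 or 1 count in BAT and at least 262-fold higher in muscle, Cpt1a, the liver form of the transferase, which was within 2-fold, and Fabp3. Fabp3 measured 422, 460.2, 497, 314 and 407 CPM in WT BAT against 974, 739.6, 493, 440.1 and 444 CPM in WT muscle, and although the tissues overlapped, all 10 libraries were above those of iWAT (0.512 to 30.7 CPM) and liver (0.396 to 1.03 CPM).

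Sugar metabolism leaned the other way, with large differences in both directions. Of 35 genes of glucose uptake, glycolysis and glycogen, 16 were more than 2-fold higher in muscle, 9 more than 2-fold higher in BAT and 6 within 2-fold (16.7%, 16.1% and 44.8% of all genes were). The list summed to 66480 ± 6852 CPM in muscle and 15770 ± 1570 CPM in BAT. Slc2a4, the insulin-responsive glucose transporter GLUT4, measured 493, 426, 393, 454 and 418 CPM in WT BAT against 566, 525, 549, 548 and 645 CPM in WT muscle. It was called higher in muscle (-0.38 ± 0.08) but within 2-fold, a call that was lost with library totals (-0.15), and its iWAT and liver levels were 95.5 to 134 and 0.793 to 1.15 CPM. Gpi1, glucose phosphate isomerase, was within 2-fold and not called. Pfkm, the committed step of glycolysis in muscle, measured 93.8, 105, 99.1, 106 and 92.6 CPM in WT BAT against 3846, 3875, 4264, 4097 and 4637 CPM in WT muscle. Pfkl, its liver-type form, measured 579, 664, 501, 559.8 and 486 CPM in WT BAT against 14.3, 10.04, 8.96, 13.1 and 10.2 CPM in WT muscle. Aldoa and Tpi1, which split and interconvert the triose sugars, were higher in muscle, with log2 fold changes of -2.43 ± 0.14 and -2.67 ± 0.08. Ldha, the lactate dehydrogenase of fast muscle, was higher in muscle (-1.31 ± 0.10), and Ldhb, the form of oxidative tissues, was called higher in BAT (1.48 ± 0.29). Of 14 glycogen genes, 9 were more than 2-fold higher in muscle and 4 in BAT. Pygm, muscle glycogen phosphorylase, was at 7724 ± 911 CPM in muscle and 7.94 ± 2.21 CPM in BAT, while the liver-type pair Pygl and Gys2 was higher in BAT (6.87 ± 0.38 and 6.61 ± 0.30; Pygl 7.51 without muscle replicate 4).

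Energy buffering was a muscle program. Ckm, muscle creatine kinase, measured 3.53, 3.38, 11.1, 10.1 and 2.103 CPM in WT BAT against 15174, 15080, 18345, 16238 and 17827 CPM in WT muscle, and Ckmt2, its mitochondrial partner, was at 1504 ± 309.6 CPM in muscle and 0.646 ± 0.441 CPM in BAT. Ckb, the brain-type creatine kinase, was more than 2-fold higher in BAT, at 11.2 to 18.1 CPM against 2.58 to 5.65 CPM, and Ckmt1 was below the filter. Mb, the oxygen store myoglobin, measured 3786, 2513, 1561, 1386 and 1428 CPM in muscle and 1.76, 2.33, 6.55, 3.31 and 2.94 CPM in BAT. As for the slow fiber genes, muscle replicate 1 was highest. In all, 7 of 12 tested genes were more than 2-fold higher in muscle and 3 in BAT (Ckb and Slc25a5 among them), against 16.7% and 16.1% of all genes, with a median of -3.17.

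Of 19 regulators of mitochondrial content, 11 were within 2-fold (44.8% of all genes were), 3 were more than 2-fold higher in BAT and 3 in muscle (16.1% and 16.7% of all genes), and the median was -0.19. All but 1 of the 8 genes listed as mitochondrial DNA and respiratory factors were within 2-fold. Among them were Tfam at 41.3 ± 1.07 and 54.6 ± 1.81 CPM and Nrf1 at 10.9 ± 0.976 and 12.4 ± 0.604 CPM in BAT and muscle. The coactivators separated where Ppargc1a did not. Ppargc1b, PGC-1beta, measured 52.8, 57.6, 78.9, 70.99 and 63.3 CPM in WT BAT against 8.43, 6.62, 5.35, 4.702 and 5.26 CPM in WT muscle. Perm1, a muscle regulator induced by PGC-1, measured 67.4, 81.6, 85.5, 61.8 and 59.2 CPM in WT BAT against 379, 326, 218, 228 and 244 CPM in WT muscle. Ppargc1b was the BAT gene and Perm1 the muscle gene, yet all 10 Perm1 libraries were above those of iWAT and liver. Esrra, the main estrogen-related receptor, was within 2-fold (0.39 ± 0.09), Esrrb was higher in muscle (-2.89 ± 0.35), and Ppara, the fatty acid receptor, was higher in BAT (3.50 ± 0.18).

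Of the secreted factors, 17 of 19 were tested. All 3 that were more than 2-fold higher in muscle (16.7% of all genes were) came from the 6 muscle-derived factors, namely Mstn, Ostn (osteocrin, no count in BAT, at least 59.8-fold) and Fndc5, the precursor of irisin (-5.09 ± 0.30). All 11 fat-derived factors tested were called higher in BAT, 8 of them by more than 2-fold (39.1% and 16.1% of all genes were). Without BAT replicates 3 and 4 and muscle replicate 4, 5 passed 2-fold. With all libraries kept, those past 2-fold included Nrg4, a neuregulin of brown fat (5.39 ± 0.39), and Angptl4, an inhibitor of lipoprotein lipase (4.86 ± 0.23). Bmp8b, a signal of brown fat, was low even in BAT at 0.239 to 1.28 CPM and at least 8.86-fold higher there. Metrnl and Apln were within 2-fold and not called. Gdf15 had 1 to 8 counts in BAT and 1 or 2 in muscle and was below the filter.

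The 5 genes with the largest contrast of BAT and muscle against iWAT and liver, among those within 2-fold between BAT and muscle, were Me3, Cox7a1, Clec18a, Slc2a4 and Gmpr. Me3, mitochondrial malic enzyme, averaged 52.3 ± 4.34 CPM in BAT and 63.9 ± 2.23 CPM in muscle, but 1.49 CPM in iWAT and 0.17 CPM in liver. Gmpr, guanosine monophosphate reductase, averaged 96.8 ± 35.1 and 130.4 ± 5.397 CPM, against 5.65 and 1.11 CPM. Clec18a was at a low level throughout, with means of 0.735 and 0.648 CPM, and no count in liver.

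The comparison was repeated in FGF21 KO mice, whose BAT and muscle libraries come from other animals. There 11436 of 15234 genes were called (75.1%). Of the 11546 genes called in WT and tested in both genotypes, 10612 were called in the same direction and 1 in the opposite direction. Genes more than 2-fold different in both numbered 4417, which is 90.5% of those in WT and 91.1% of those in FGF21 KO. Across 14908 genes the log2 fold changes had a Pearson r of 0.985, as a description, since genes are not independent replicates. All 75 called contractile genes and 45 of the 45 called thermogenic genes held their call and direction, and the medians were -8.93 and 4.06. A test of the interaction of tissue and genotype called 9 of 15646 genes, and 1953 had an unadjusted p under 0.05. Of the listed genes, Pdpr, a regulator of pyruvate dehydrogenase phosphatase, was among the 9.

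**Figure D5:**
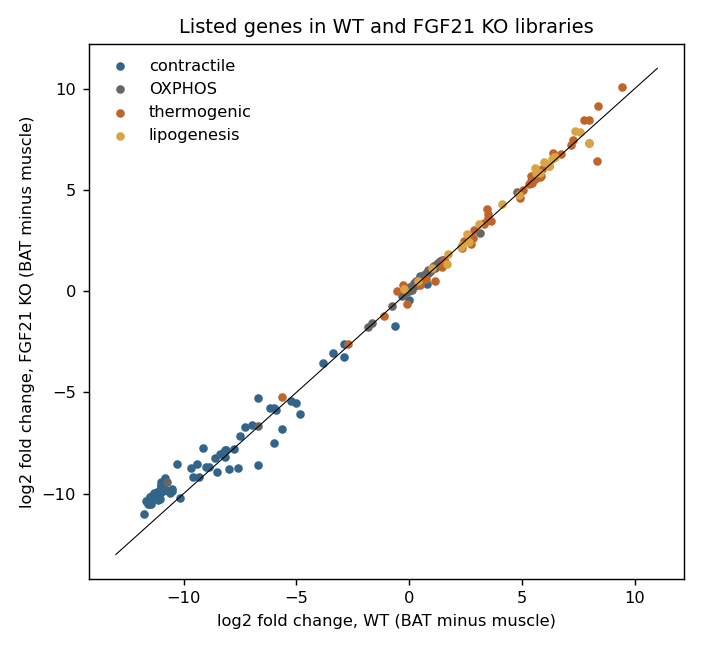
Log2 fold change of BAT over muscle in WT (horizontal) and in FGF21 KO (vertical) for the contractile, OXPHOS, thermogenic and lipogenesis genes, 1 point per gene, with the line of equality. Genes at the counting floor are left out, and 228 genes are drawn. Points follow the line from the contractile genes at lower left to Ucp1 at upper right, and the contractile genes with the lowest WT values lie above it. The contractile median, with genes not drawn included, is -8.93 in FGF21 KO and -9.59 in WT.

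In UCP1 KO and dKO the contractile medians lay nearer to 0, and some BAT libraries held more muscle transcripts. The 10 fiber markers took 86.6 to 201 CPM of the raw counts in WT BAT and 89.8 to 537 in FGF21 KO BAT, but 127 to 11770 in UCP1 KO BAT and 170.2 to 5829 in dKO BAT, while muscle held 143200 to 185000 in all 4 genotypes. The contractile medians were -5.87 in UCP1 KO and -5.34 in dKO, beside -9.59 in WT, and 68.5% and 69.1% of tested genes were called there. The part of these fiber transcripts in that difference was not tested. The thermogenic medians were 3.55 and 3.79, beside 3.61 in WT.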

How the data were processed

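The deposited files hold, per library, raw read counts per gene that the authors made by aligning stranded, poly(A)-selected, paired reads to mm10 (GRCm38) with STAR and counting them with HTSeq-count, without normalization. The strand setting of the counting is not given in the sources used here, so antisense and overlapping genes are uncertain. The row that names no gene (1.317e-05 percent of counts) was dropped. Symbols of mitochondrially encoded genes were not found, and rows named by a sequence record were tested but are not named.

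The 10 WT BAT and WT muscle libraries (30298956 to 43593343 counts) were fitted together with edgeR 4.0.16 in R 4.3.3 (TMM, quasi-likelihood, Benjamini-Hochberg adjustment), keeping genes with a highest count above 15 and a sum above 75. These are the first parts of the study's filter, whose further rule on genes without counts in many samples was not applied. The study's own test was DESeq2, which served here as an alternative (version 1.42.0). The 2-fold test was glmTreat. The 4-tissue contrast used the 20 WT libraries, and the same fit was repeated in the other genotypes. No 2 of the 10 libraries were identical, and each was closer to its own tissue (Pearson r of log values 0.992 to 0.997) than to the other (0.731 to 0.765). Intervals cover counting error and the spread between libraries. Bounds at the floor are ratios of the higher tissue's mean to 3 counts and do not cover that spread.

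Members and gene lists were chosen with earlier results of these data known. For each list and role the text names the genes with the largest and smallest fold change, the highest CPM and those against the majority, all paralog families with a member of at least 10 CPM, and the leading genes of the whole table. A further 41 listed genes, such as Fasn, Acadl, Prdm16, Sln and the slow troponins, were named after their values were seen. Alternatives were other scaling factors, no filter, DESeq2, other thresholds, a fit of 40 libraries and leaving out libraries. A few genes are not reported here.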

Additional observations from a re-analysis of the deposited data

Results flagged for a closer look

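In 395 groups of 5 libraries (named genes of the lists, in either tissue), 41 held a library whose gap to its nearest neighbour exceeded 0.71 of the group's range. Of these groups, 76 were of genes named after their values were seen and held 14 of the 41. The 319 groups of genes named by the rule held 27. The rule also used the values of these libraries, and the groups share the same libraries, so the counts cannot be compared with chance. WT muscle replicate 4 was the high library for 17 of the 41, of which 11 were of genes named by the rule and 6 of genes named after their values were seen, and its brown adipocyte marker score of 2.06 stood apart in the same way. In that library Ucp1 stood at 30.5 CPM, Cidea at 20.6, Slc27a2 at 2.44, Slc36a2 (an amino acid transporter) at 24.8, Otop1 at 3.30, Kcnk3 at 3.79, Letmd1 at 15.9 and Thrb at 34.2 CPM. The lipid genes Fasn, Acly, Elovl6, Thrsp, Agpat2 and Acsl5 stood at 259, 63.98, 17.1, 53.6, 24.2 and 14.6 CPM there, and Cox6a1, Eno1 and Pygl, paralogs that lead in BAT, at 21.2, 33.0 and 16.3 CPM.

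WT muscle replicate 1 was apart for the slow fiber genes. It held 233 CPM of Myh7, 97.5 of Myl2, 107 of Myl3, 30.6 of Tnni1, 51.7 of Tnnt1, 39.7 of Tnnc1, 108 of Tpm3 and 290.4 of Atp2a2, and it was the lowest muscle library for the fast calcium pump Atp2a1, at 25445 CPM.

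The other cases were spread over libraries. In WT BAT they were Epdr1 at 2.41 CPM and Cox8a at 502 CPM in replicate 1, Ndufa10 at 736 and Hk1 at 69.1 CPM in replicate 2, Myh1 at 5.47 and Atp5g3 at 136 CPM in replicate 3, Meox2 at 18.4, Cox7a1 at 333 and Idh3a at 1471 CPM in replicate 4, and Ebf2 at 100.5, Tpm3 at 50.2, Ndufa5 at 149, Atp5g2 at 94.8 and Nrf1 at 12.6 CPM in replicate 5. In WT muscle, Pdpr stood at 139 CPM in replicate 5.

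The tissue difference (log2, BAT over muscle) was not the same in WT and FGF21 KO for 7 genes given here, by the interaction test of edgeR with adjusted p from 0.00209 to 0.00956. WT minus FGF21 KO was -1.09 for Zhx3, -0.83 for Pdpr, -0.78 for Ago2, -0.49 for Ppp1r12b, -0.42 for Larp4b, -0.40 for Ppp4r2 and 0.44 for Plpp3. Zhx3, a zinc finger and homeobox factor, differed between the tissues by -0.62 in WT and 0.49 in FGF21 KO.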

How the results depend on the processing

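Of 218 named genes, 24 changed their direction or their side of the threshold under at least 1 alternative. Among the counts over all genes, leaving out 1 WT library gave 11191 to 11343 calls, 4734 to 4849 genes past 2-fold and 6538 to 6692 within 2-fold, DESeq2 gave 12463 calls, no filter 12333 and a threshold of 0.05 12549. Past 4-fold there were 2200 genes, and within 1.5-fold 3482, as the settings themselves require. Genes with all 10 BAT and muscle libraries above the rest numbered 2583 against iWAT alone and 3708 against liver alone. The contractile count of 75 was the same in each setting, the thermogenic count was 37 to 40, and OXPHOS genes within 2-fold were 34 (library totals) to 50. Library totals moved the median of all genes by 0.22 on the log2 scale, and 59.5% of calls were then higher in BAT, against 50.6%. Pdk2 then turned from -0.16 to 0.066 and Atp5g2 from -0.03 to 0.20. Tpm3 turned from -0.01 to 0.42 without muscle WT replicate 1, and ranged from -0.14 to 0.42 over single libraries left out. Without BAT WT replicates 3 and 4 and muscle WT replicate 4 together, chosen after seeing the data, there were 10431 calls, 4464 genes past 2-fold and 6259 within 2-fold, with 37 thermogenic, 75 contractile and 46 OXPHOS genes as above, and 5 in place of 8 secreted factors past 2-fold in BAT. The cause of the reversals was not tested. No paired analysis was possible because the labels carry no number or mouse linking libraries. The unknown muscle type, whole-tissue RNA and reads shared with near-identical gene copies limit single-gene levels.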

Other observations

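Rows named by a sequence record and not by a symbol took 20.9 to 22.7% of all counts in WT BAT and 11.6 to 13.2% in WT muscle, and entered the fit but none of the gene groups. The 10 most counted rows held 30.5 to 32.4% of counts in WT BAT and 24.7 to 26.8% in WT muscle. Lipogenesis genes alone made up 9.92 to 12.5% of WT BAT counts against 0.313 to 0.544% in WT muscle, while genes of fatty acid oxidation made up 3.87 to 4.14% and 0.495 to 0.766%.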
